A study of Rattus norvegicus with 112 samples.

Results

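The genes described here belong by name to families of transmitter release and synaptic adhesion, though some, such as the endosomal syntaxin Stx8, act elsewhere. They were taken from array probe sets annotated with a single gene whose symbol begins with Syt, Stx, Vamp, Snap, Rab, Nrxn, Nlgn, Nxph, Dlg, Ctnn or Cplx, or is Syn1, Syn2, Syp, Synpo, Sv2a, Sv2b, Nsf or Napa. This gave 58 probe sets and 43 of the 720 genes named on the array, and where a gene had several probe sets, the brightest on average was used. The 43 genes were 10 synaptotagmins, 10 SNARE proteins of the syntaxin and SNAP families, the SNARE regulator Stxbp2, 4 synaptic vesicle proteins, 5 Rab GTPases, 8 trans-synaptic adhesion genes, the catenin Ctnnd2 and 4 postsynaptic scaffold genes. No gene of the Vamp or Cplx families was found among these probe sets, nor were Sv2b, Nsf or Napa.

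RNA came from primary cultures of rat cortical neurons, labelled as brain, cerebral cortex, and was measured on 112 arrays in 10 runs. In the continuous run, cultures were harvested after 10, 30, 60, 180 or 360 min in 1 mM NMDA, which opens the NMDA subtype of glutamate receptor, with 3 arrays in each group and in the control. In the pulse run, 1 mM NMDA was removed after 10, 30 or 60 min and RNA was taken 24 h later, with 4 arrays in each group, and a second pulse set held 1 array in each group. In the crossed run, cultures had 18 h of 10 uM nicotine, 60 min of 1 mM NMDA, both or neither, with 3 arrays each. In the washed-out experiment, 18 h of 10 uM nicotine, 30 min of 1 mM NMDA, both or neither were given and then removed 24 h before harvest, with 5 arrays in each of the 4 groups. It was hybridized in a first run and a repeat run, which the labels describe as the same samples run again after an oven failure. The last 3 runs, each with 3 treated and 3 control arrays, tested 15 min of 10 uM nicotine with harvest 45 min later, 18 h of 2 uM 4R, and 18 h of 2 uM 4R with harvest 24 h after its removal. The labels call 4R a nicotinic receptor antagonist of the non-competitive kind. For replicate 1 of the 30 min pulse, a time field reads 60 min while the title and description read 30 min, and the array was kept at 30 min.

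Transmitter release depends on the pairing of SNARE proteins on the vesicle (synaptobrevins) with SNARE proteins on the plasma membrane (syntaxin 1 and SNAP-25), and on synaptotagmins that sense the calcium entering through voltage-gated channels. Synapsins tether vesicles in the reserve pool, and Rab3a is the vesicle-bound GTPase of regulated release. Across the cleft, presynaptic neurexins bind postsynaptic neuroligins, neurexophilins are secreted ligands of alpha-neurexins, and the scaffold PSD-95 (Dlg4) anchors neuroligins and NMDA receptors at excitatory synapses.

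Array values were intensities in arbitrary units, and changes are given as log2 of treated over control after adding a small offset, so that they understate the change of dim probe sets. The number of arrays limits the precision, and the labels do not say for every group that replicates were separate cultures, so the p-values measure the spread between these samples, which may be partly technical. In each run 884 probe sets were bright enough to be tested with limma, with Benjamini-Hochberg adjustment over all 884. Of the 43 genes, 32 were tested in all 8 replicated runs, 7 in some and 4 (Rab29, Stx3, Syt2 and Syt10) in none. Of the 112 arrays, 12 stood apart from their run by a low median correlation with its other arrays, of which 2 were in the first washed-out run and 1 in a set of 4 repeat arrays of pulse samples used only for checks. No probe set of the 1322 separated that array by more than 0.05 from 10 min pulse replicate 3. The ratio of the 3′ to the 5′ Gapdh probe set, a sign of RNA quality, had a median of 1.46 and exceeded 2 on 10 arrays. The neuron markers fixed for this work had 8 of 13 members on the array, and none of the 8 lay in the lowest 30% of probe sets in any run's groups described below.

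In untreated cultures the members differed between runs by amounts that depended on the gene. Over the 32 genes tested in every run, the highest run mean of the controls was between 1.36 and 7.15 times the lowest, with a median of 2.09 and a median SD among control replicates of 0.27 on the log2 scale. Stx1a, the plasma membrane syntaxin of release, spanned 1.36 times, from a mean of 8512 in the first washed-out run to 11560 in the continuous run. Syp, which encodes the vesicle protein synaptophysin, spanned 1.42 times. At the other end, Syt11 spanned 6.17 times, from 1492 in the pulse run to 9205 in the 4R 18 h run, and Nlgn3 spanned 6.56 times. The widest span, 7.15 times for Syt8, had its highest mean, 2277, in the repeat washed-out run, where control replicates 3 and 4 stood apart. Without the control arrays that stood apart, the median span was 1.86, that of Syt8 was 6.42 and that of Nxph4 was 2.38 in place of 4.11. Treatments were therefore compared only within a run.

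**Figure D1:**
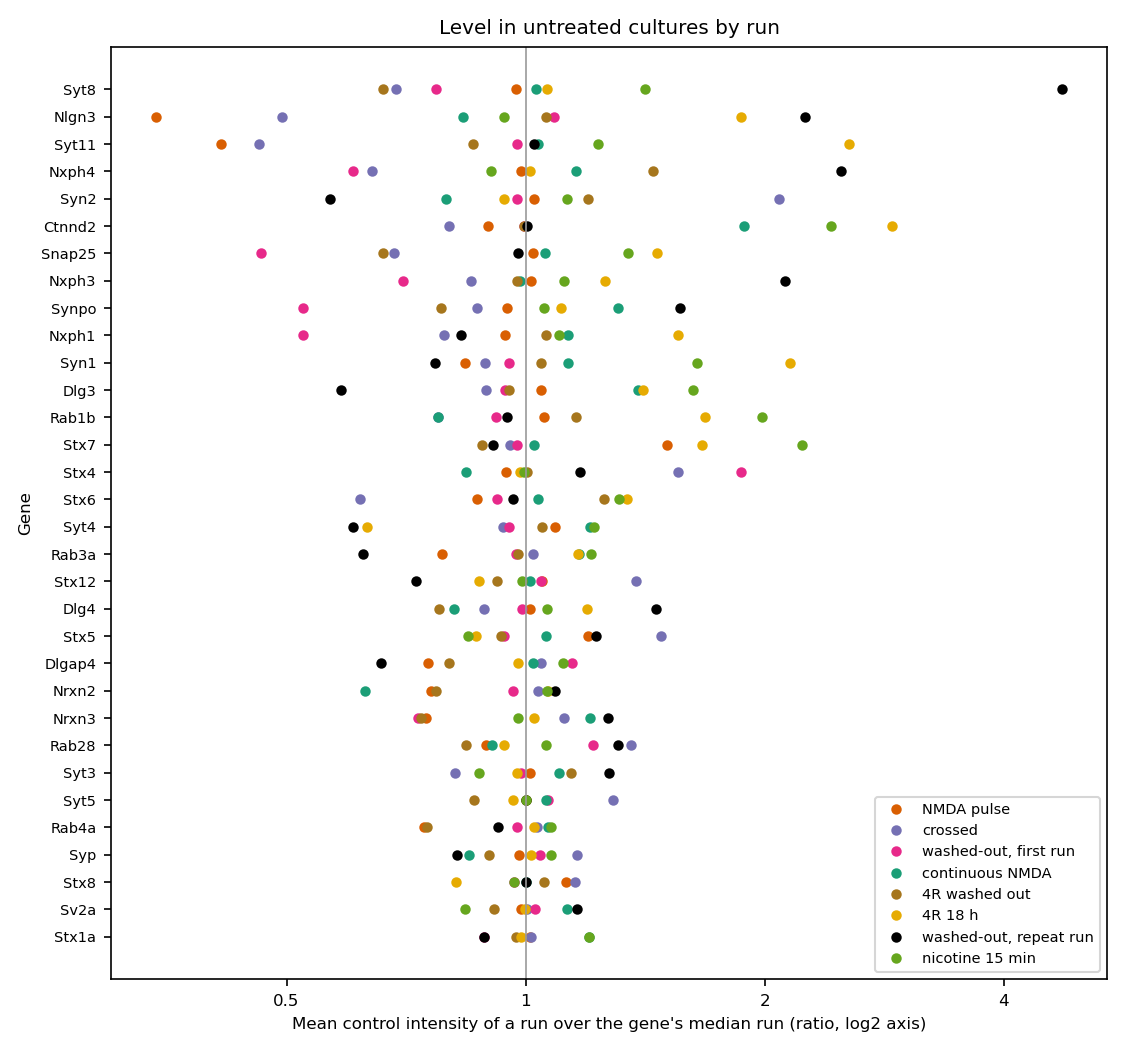
Mean control intensity of each run divided by the gene's median over the 8 runs, on a log2 axis, for the 32 genes tested in every run, with all control arrays included. Genes are ordered by the span between runs, from Stx1a at 1.36 times to Syt8 at 7.15 times, and the black points of the repeat washed-out run are often at an extreme.

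Across the 21 comparisons fixed for the study, in which the repeat run stood for the washed-out experiment, limma called 0 members at an adjusted p under 0.05. Calls among the members came from the first washed-out run, from the repeat run without its control arrays that stood apart, from the pulse run for Nrxn3, with its arrays that stood apart left out and a replicate block, and from the repeat run without control replicate 5 for Syt4. In these bulk cultures, fewer cells of a type and less RNA per cell cannot be told apart.

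**Figure D2:**
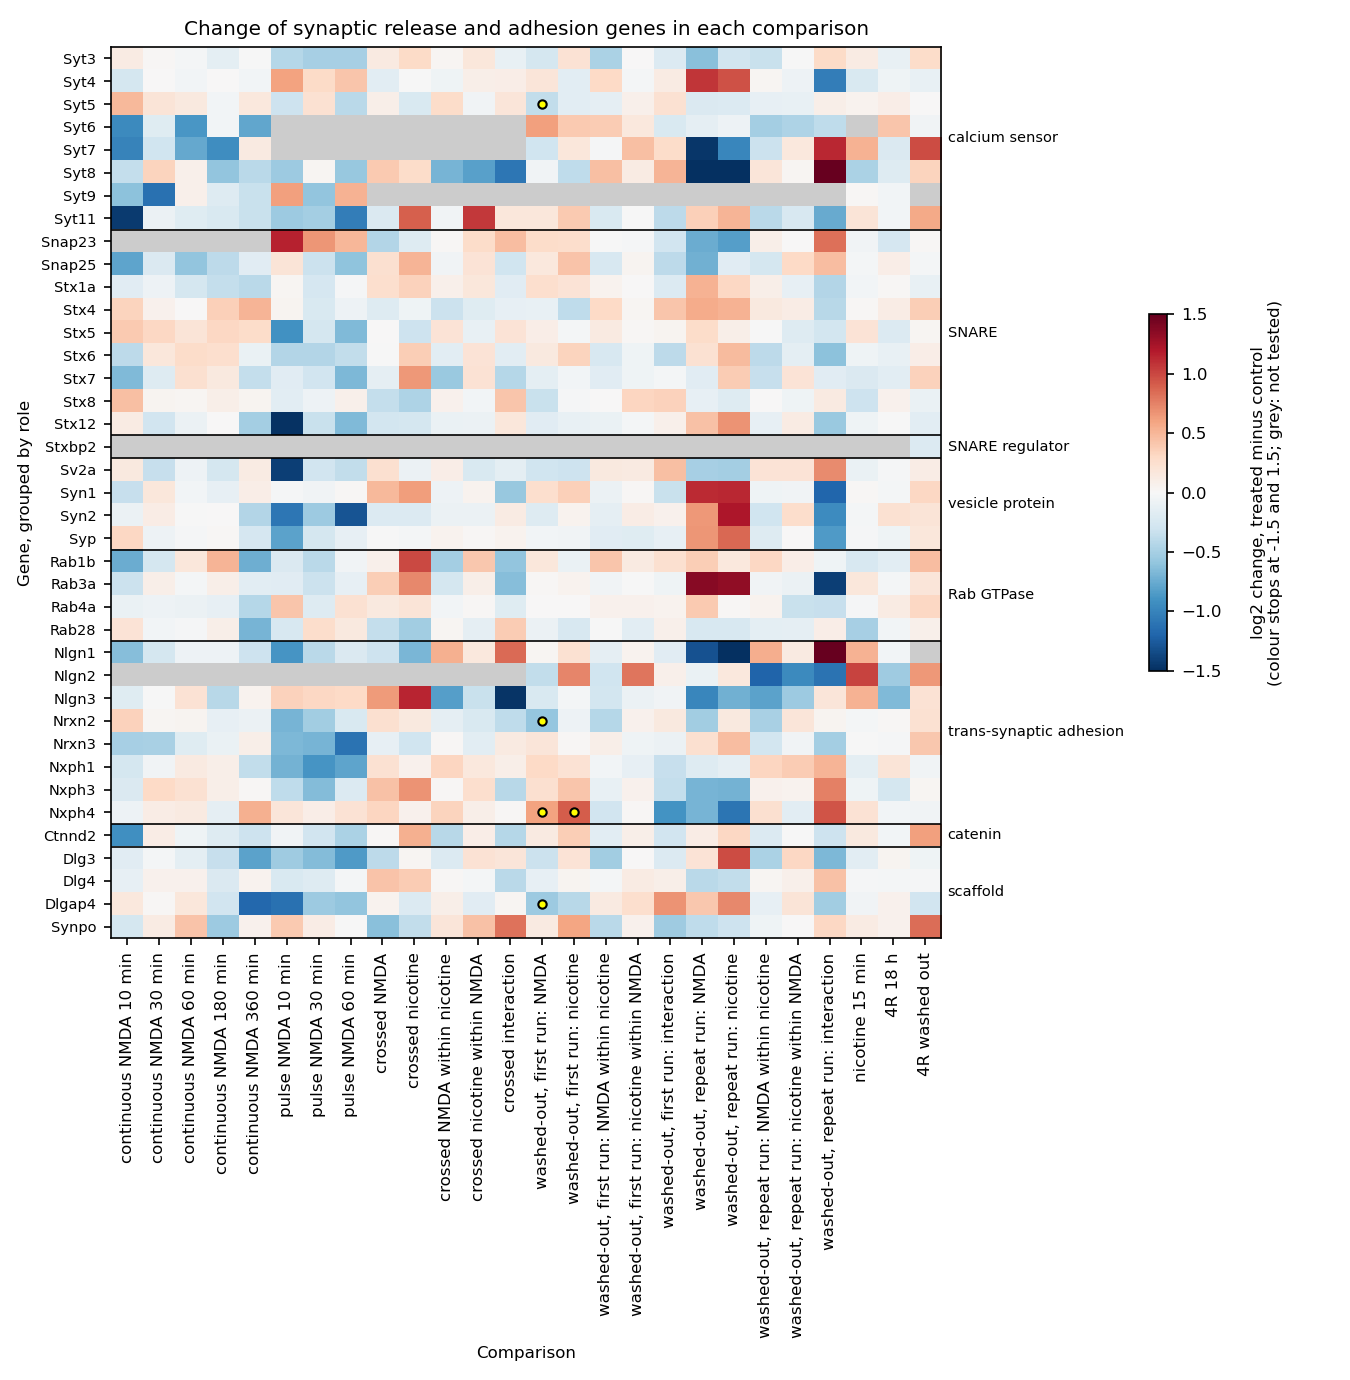
Log2 change of each tested member in each comparison, treated minus control, with genes grouped by role and yellow dots for adjusted p under 0.05 (limma). The 5 dots lie in the first washed-out run (Syt5, Nrxn2, Nxph4 and Dlgap4 with NMDA, and Nxph4 with nicotine), and no dot lies in the other columns.

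The pulse run asked what remained 24 h after a brief exposure to NMDA. No member passed the test after a 10, 30 or 60 min pulse, where 2.26%, 1.36% and 1.58% of all probe sets did, every one of them higher. At an unadjusted p under 0.05 the counts were 4, 1 and 3 of 35 members, against 9.28%, 5.09% and 6.11% of all probe sets. More members had values below their control than above it: 25, 27 and 26 of 35, which is 71.4%, 77.1% and 74.3%, against 52.4%, 56% and 58.3% of all probe sets. The median log2 change of the members was -0.24, -0.28 and -0.22 after the 3 pulses, and that of all probe sets was -0.04, -0.06 and -0.11. Of the 6 activity-induced genes kept as a check of the treatment (Fos, Egr1, Nr4a1, Junb, Bdnf and Crem), 5 rose after the 10 min pulse and 4 after each of the others.

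Among the adhesion genes, 5 of 7 lay below control after each pulse, with median log2 changes of -0.67, -0.52 and -0.22. Nrxn3, a presynaptic adhesion receptor, had control intensities of 943.6, 951, 1001 and 1020, a mean of 978.7 ± 37.2 (SD, n = 4). After the 10 min pulse the Nrxn3 arrays read 631.1, 767.7, 471.5 and 533.3. After the 30 min pulse Nrxn3 read 339.4, 792.3, 720.9 and 558.7, and after the 60 min pulse 540.6, 367.6, 282 and 550.1. All 12 NMDA arrays were thus below the lowest Nrxn3 control array. Among all probe sets, 3.17%, 3.17% and 1.58% had treated arrays entirely below the controls at the 3 times. The log2 change of Nrxn3 was -0.67, -0.70 and -1.10, the last with an SE of 0.33 and an adjusted p of 0.137, so none of them passed.

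The 60 min value of Nrxn3 changed with the choice of arrays. Replicate 4 of the 60 min pulse stood apart, with a Gapdh 3′ to 5′ ratio of 12.3, and so did replicate 3 of the 10 min pulse, with a ratio of 2.61. Without these 2 arrays the Nrxn3 change after 60 min was -1.22 with an adjusted p of 0.0569, and with the culture replicate also as a block it was -1.24 (SE 0.31), with an adjusted p of 0.0362. That was the only member called under that setting, where 4.3% of all probe sets were called. A repeat array of 60 min replicate 4 had a Gapdh ratio of 1.88 and did not stand apart in its own set. It did not enter these fits. In the second pulse set, with 1 array a group and no test, Nrxn3 read 890 in the control and 471.5, 418.4 and 521 after the 3 pulses.

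Nrxn2, the other neurexin on the array, had pulse control intensities of 12670, 16210, 11080 and 13490. After the 10 min pulse Nrxn2 read 12060, 7432, 7413 and 6574, and after 30 min 8855, 8970, 7744 and 11560. After 60 min it read 9484, 10240, 9887 and 17000, the last from the replicate that stood apart. At each time 3 of the 4 treated arrays were below every control and 1 was not, so the groups overlapped. The Nrxn2 changes were -0.70 (SE 0.31, adjusted p = 0.501), -0.52 and -0.23, and none passed. A second Nrxn2 probe set of intermediate brightness changed by -1.12 (adjusted p = 0.212), -0.69 and -0.48. The single arrays of the second pulse set read 13180 in the control and 7762, 9184 and 7045 after the pulses. Nxph1, a ligand of alpha-neurexins, changed by -0.71, -0.88 and -0.80 and did not pass either.

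The vesicle proteins lay below control in 4 of 4, 4 of 4 and 3 of 4 genes, with medians of -0.94, -0.28 and -0.25. Sv2a, a transporter-like glycoprotein of synaptic vesicles, read 2768, 2929, 2255 and 2358 in the controls and 1679, 2209, 128.2 and 1191 after the 10 min pulse. Syp read 10530, 13460, 10550 and 9398 in the controls and 8250, 9383, 3096 and 6272 after 10 min. In both genes every treated array was below every control array, and in both the lowest value came from replicate 3, the array that stood apart. The log2 changes were -1.41 (adjusted p = 0.362) for Sv2a and -0.80 (adjusted p = 0.501) for Syp. Without that array they were -0.62 and -0.47, and the median of the 4 vesicle proteins was -0.43. Syn2, a synapsin, changed by -1.08, -0.54 and -1.29, where its 60 min arrays read 757.9, 832, 582.4 and 118.6 against controls of 1106, 1727, 748.9 and 1747. The lowest of these again came from an array that stood apart, and Syn2 at 60 min was -0.76 without it. The other synapsin on the array, Syn1, was at -0.02, -0.06 and 0.02.

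The SNARE genes lay below control in 5, 8 and 7 of 9 genes, with medians of -0.15, -0.27 and -0.37, and the synaptotagmins had medians of -0.37, -0.23 and -0.45 over 6 genes. Syt4, a synaptotagmin known to be induced by activity, read 20470, 17910, 21230 and 19460 in the controls, 22720, 23910, 47130 and 31340 after 10 min, and 23750, 21350, 24500 and 38930 after 60 min. The arrays of both times lay above every control, which 3.62% of all probe sets also showed at each of these times, and the highest in each came from the array that stood apart. The Syt4 changes of 0.60 and 0.42 did not pass, and were 0.38 and 0.23 without those arrays. In the second pulse set Syt4 lay below its single control array, at -0.25, -0.23 and -0.33 after the 3 pulses. Snap23, a SNARE of wide tissue range, read 393.4, 321.6, 29.67 and 165.7 in the controls and 210.6, 426.3, 932.1 and 612.7 after 10 min, an overlapping change of 1.15 that did not pass, and Syt11 was at -1.04 after 60 min. Among the scaffolds, Dlg3 (SAP102) read 666.9, 679.3, 513.3 and 681 in the controls and 228.1, 428.9, 398 and 275.9 after 60 min, without overlap, and its change of -0.84 did not pass either. In the second pulse set Dlg3 was at 0.08 after 60 min.

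Without the arrays that stood apart, limma still called 0 of 35 members after each pulse, where 2.6%, 1.7% and 1.81% of all probe sets were called, and 9 of 35 had an unadjusted p under 0.05 after 10 min, all of them lower, where 13.5% of all probe sets had one. These 9 were Nrxn2, Rab3a, Sv2a, Syt3, Stx6, Dlg4, Stx8, Dlg3 and Syp. With all arrays included, the summed intensity of the 8 neuron markers was 184000 to 228000 in the controls and 23500 to 239000 after 10 min. It was 151000 to 210000 after 30 min and 115000 to 198000 after 60 min. The lowest 10 min sum came from replicate 3, which stood apart, and the median sum of that group was 172000. The part of these markers in the members' values was not tested. In the second pulse set 29, 28 and 26 of the same 35 members lay below the single control array, with medians of -0.43, -0.35 and -0.41 against -0.01, -0.04 and 0.02 for all probe sets.

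The washed-out experiment asked whether prior nicotine altered the state of the cultures 24 h after a 30 min NMDA pulse. In its first run, limma called 4 of 37 members with NMDA, with Nrxn2, Syt5 and Dlgap4 lower and Nxph4 higher. The labels do not say which of the 2 runs the oven failure affected, so the first-run values may carry its effect. Of all probe sets 14% were called in that comparison, 11.1% as higher and 2.94% as lower, and 7 of 37 members had an unadjusted p under 0.05 against 27.6% of all probe sets. The median log2 change was 0.01 over the members and 0.16 over all probe sets. With quantile normalization 2 members were called, and 20 probe sets were higher and 14 lower in place of 98 and 26. With every array centred on its median 7 members were called, and 40 probe sets were higher and 121 lower.

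Nrxn2 fell in the first run to 0.67 of its control level. Its control arrays read 15110, 15940, 15400, 21630 and 16640, and its NMDA arrays 13050, 10160, 10030, 13220 and 10140. Every NMDA array was below every control array. The log2 change was -0.58 (SE 0.12, 95% interval -0.82 to -0.33, adjusted p = 0.00447), and Nrxn2 passed under each of the 10 alternatives tried, with adjusted p from 0.000535 to 0.0418. With nicotine present beforehand, NMDA arrays read 13920, 10820, 11870, 12000 and 10580 against 18690, 15220, 14570, 16490 and 14850 with nicotine alone. These groups did not overlap either, which 0.905% of all probe sets showed in that direction. The change of -0.43 (SE 0.12) had an adjusted p of 0.06005 and did not pass. Under 3 of 10 alternatives Nrxn2 was called there, among them the replicate block (adjusted p = 0.00646, limma). The difference between the NMDA effects with and without nicotine was 0.15, with a 95% interval of -0.20 to 0.50. Nicotine alone changed Nrxn2 by -0.08 in that run.

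In the repeat run of the same samples, the Nrxn2 controls read 21440, 16190, 5521, 36670 and 15830, where 5521 and 36670 came from replicates 3 and 4. Those control arrays stood apart, with median correlations to the other arrays of 0.2 and 0.588. The NMDA arrays read 12620, 11350, 9897, 11880 and 10770, below every control except replicate 3. With all arrays the change was -0.52 (SE 0.35, adjusted p = 0.415) and did not pass. Without control replicates 3 and 4 it was -0.65 (SE 0.14, 95% interval -0.94 to -0.35, adjusted p = 0.0245), and Nrxn2 was the only member called, where 1.81% of all probe sets were. In the presence of nicotine the NMDA arrays read 12850, 13340, 12650, 14470 and 11060 against 16710, 18860, 16750, 22850 and 15310. The change there was -0.48, with an adjusted p of 1 when all arrays of the run entered the fit and of 0.0406 without the 2 control arrays, where 2.83% of all probe sets were called. As both runs measured the same samples, the repeat does not add biological replicates.

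**Figure D3:**
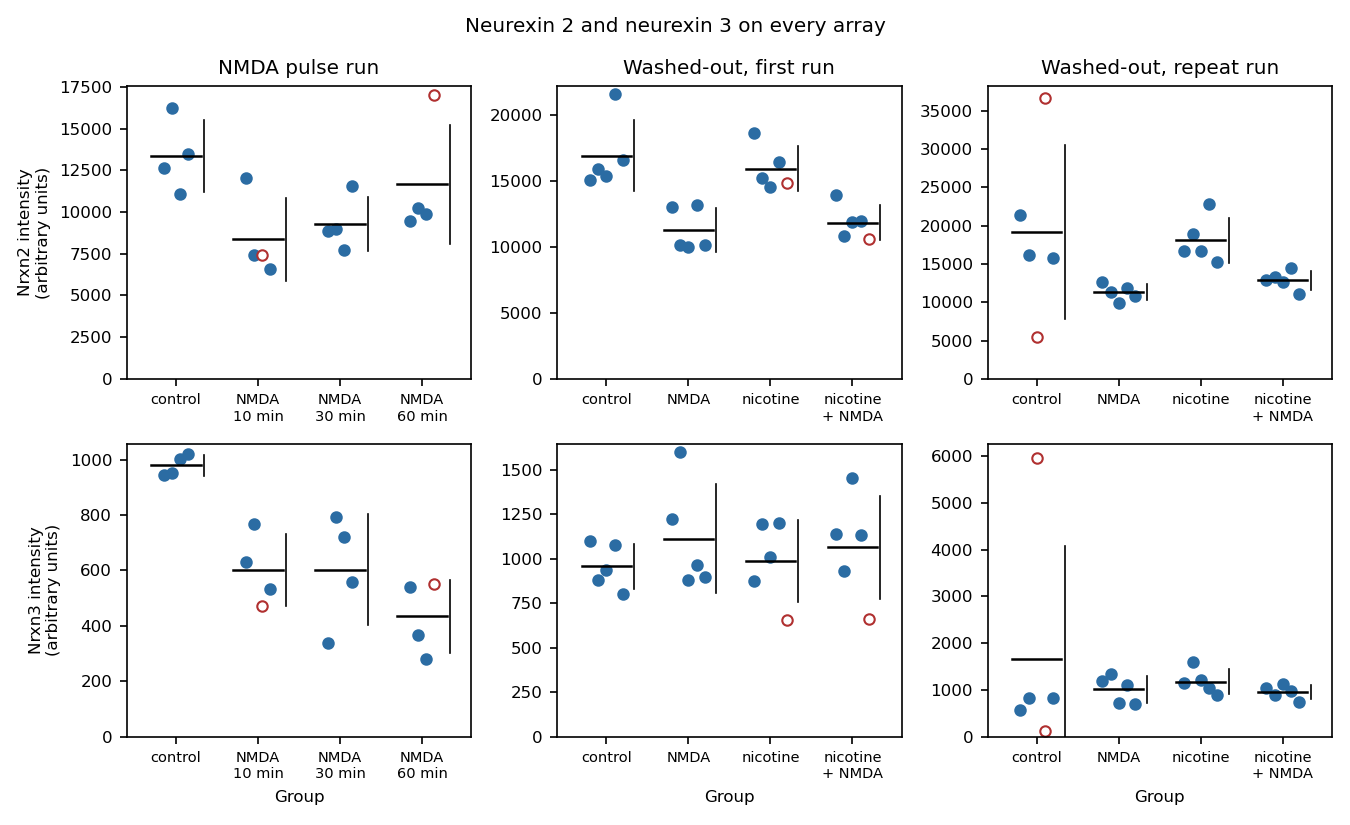
Intensity of Nrxn2 (top) and Nrxn3 (bottom) on each array of the pulse run and of both washed-out runs, with the group mean (horizontal line) and 1 SD on each side (vertical line), and open red circles for arrays that stood apart. Nrxn2 lies at 10030 to 13220 in the first-run NMDA group against 15110 to 21630 in its control, whereas Nrxn3 overlaps its control there and lies below every control array in the pulse run.

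The 2 other Nrxn2 probe sets did not pass on their own. In the first run the set of intermediate brightness changed by -0.22 (adjusted p = 0.167) and the dimmest by -0.97 (adjusted p = 0.139), so that all 3 sets lay below 0 with sizes that differed. In the repeat run with all arrays they changed by 0.12 and -1.27 (adjusted p = 0.242). Which transcripts each probe set reads was not examined. Where NMDA was still present at harvest, Nrxn2 lay near its control. In the continuous run its changes were 0.34, 0.03, 0.05, -0.12 and -0.09 from 10 to 360 min, and in the crossed run it changed by 0.24 without and -0.13 with nicotine. Nrxn3 showed no matching change in the washed-out runs, with 0.18 in the first and 0.24 in the repeat, neither called. The repeat value includes control replicates 3 and 4, which stood apart. Replicate 3 read 5968 with the nearest at 824.3, and the Nrxn3 control mean was 1661 with this pair and 737.5 without it. The middle group of the pulse run had the same NMDA dose, exposure and washout time. There every Nrxn3 array lay below the controls, though that change was not called, and the reason for the difference was not tested. Whether the fall of Nrxn2 differs between the washed-out and the continuous experiments was not tested, since the runs were hybridized separately.

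**Figure D4:**
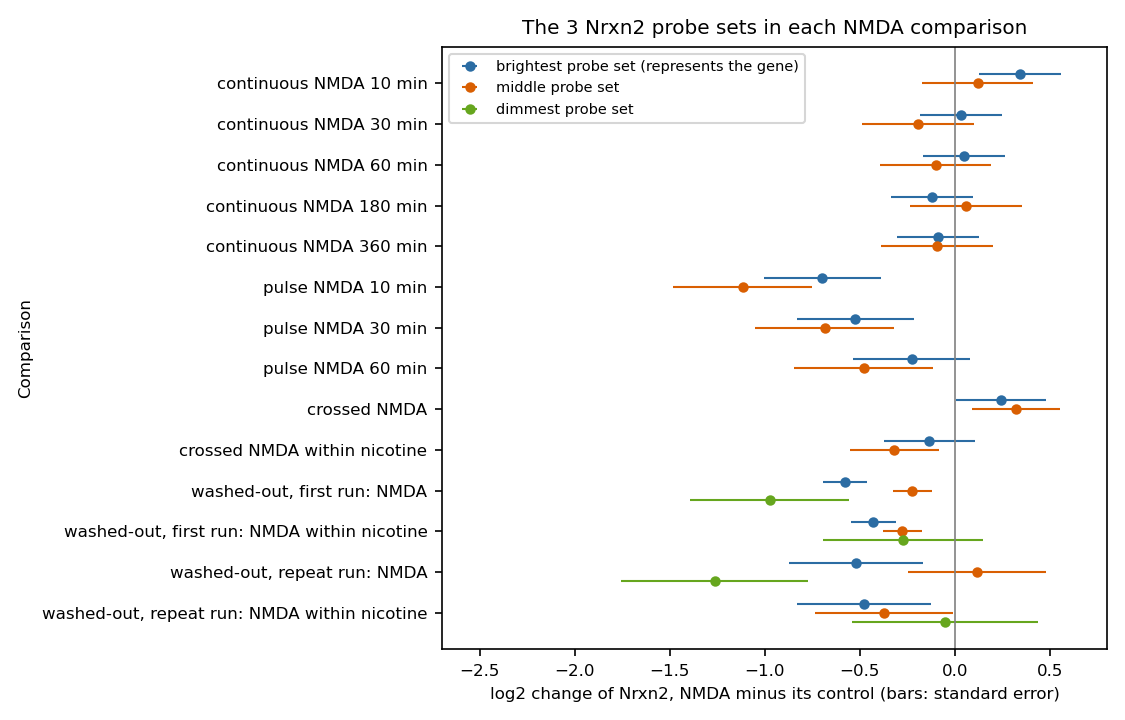
Log2 change of each Nrxn2 probe set in each NMDA comparison, with bars of 1 standard error and all arrays included. The brightest set, which represents the gene, is at -0.58 in the first washed-out run and at -0.70 after the 10 min pulse, and between -0.12 and 0.34 in the continuous run.

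Nxph4, a member of the neurexophilin family, rose in the first run with both treatments. Its controls read 486.7, 579.8, 558.1, 695.5 and 540.2, a mean of 572.1 ± 77.1 (SD, n = 5). The NMDA arrays read 724.7, 1015, 1001, 803 and 967.3, and the nicotine arrays 969.1, 806.4, 1047, 1341 and 1597. Neither group overlapped the control, as was so for 7.58% of all probe sets with NMDA and 3.05% with nicotine in the higher direction. The log2 change with NMDA was 0.61 (SE 0.16, adjusted p = 0.0176), and with nicotine 0.91 (SE 0.16, adjusted p = 0.0118), where 0.339% of all probe sets were called. With both treatments Nxph4 read 970.2, 955.2, 900.8, 773.9 and 940.8, so that NMDA after nicotine lay 0.29 below nicotine alone, and the interaction of -0.90 (SE 0.22) had an adjusted p of 0.332. The NMDA call was lost with quantile normalization (0.35, adjusted p = 0.217) and with median centring (0.38, adjusted p = 0.116). The nicotine call was lost with quantile normalization (0.71, adjusted p = 0.0792), with only the groups compared in the fit (adjusted p = 0.145), and without the arrays that stood apart with the replicate block (0.79, adjusted p = 0.0782). Leaving out nicotine replicate 4 also ended it (0.85, adjusted p = 0.0612).

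The repeat run did not give the same picture for Nxph4. Its control arrays read 724.6, 838.4, 4267, 5127 and 797.5, with the high pair from the replicates that stood apart. The NMDA arrays read 672.1, 1031, 1099, 1069 and 1077, and the nicotine arrays 710.8, 877.6, 428.4, 767.6 and 983.2. Without the 2 control arrays the NMDA change was 0.29 (adjusted p = 0.52) and the nicotine change -0.10 (adjusted p = 0.908), so neither rise was called in the repeat. With all arrays the values were -0.70 and -1.09. Nxph3, a related neurexophilin, read 484.7, 476.5, 468.8, 438.3 and 429.2 in the first-run controls and 711.2, 546, 673.9, 617.8 and 615.1 with nicotine. These groups were also separate, and the change of 0.41 had an adjusted p of 0.157. With nicotine 6 of 37 members had an unadjusted p under 0.05 in that run, against 17.4% of all probe sets.

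Syt5, a calcium-binding synaptotagmin of secretory vesicles, fell with NMDA in the first run. Its controls read 10050, 10110, 9155, 10070 and 10280, and its NMDA arrays 7983, 8424, 6783, 8412 and 7014. Every NMDA array was below every control, and the change was -0.37 (SE 0.11, adjusted p = 0.0269). The Syt5 call was lost in 6 of 10 fits that left out 1 array, with adjusted p up to 0.0778, and with quantile normalization (adjusted p = 0.0732). In the repeat run without the 2 control arrays the Syt5 change was -0.03, with NMDA arrays at 7884, 7778, 7208, 8007 and 8556 and the remaining controls at 6797, 8428 and 9048. Sv2a, the vesicle glycoprotein, was also separated in the first run, at 2449, 2808, 2646, 2851 and 2685 in the controls and 1996, 2225, 2156, 2364 and 2118 with NMDA. Its change of -0.30 had an adjusted p of 0.139 and did not pass, and 2.6% of all probe sets were separated in that direction.

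Dlgap4 encodes a postsynaptic density protein that binds the PSD-95 family. In the first run its controls read 3867, 3697, 3253, 3751 and 4235, and its NMDA arrays 2454, 2240, 1961, 2548 and 3999. The NMDA arrays were below every control except replicate 5, which lay among them. The change was -0.54 (SE 0.17, adjusted p = 0.0418), and Dlgap4 passed under 5 of 10 alternatives. The call was lost with the mean of its 2 probe sets (-0.21, adjusted p = 0.387), with quantile normalization (adjusted p = 0.0709), with only the groups compared in the fit (adjusted p = 0.0738), without the filter (adjusted p = 0.0507) and without the arrays that stood apart (adjusted p = 0.0505). It was also lost in 8 of 10 fits that left out 1 array. The dimmer Dlgap4 probe set went the other way with NMDA, at 0.11 (adjusted p = 0.715, limma). Nicotine arrays read 2067, 3508, 2322, 3273 and 3045, a change of -0.42 with an adjusted p of 0.214. With nicotine the dimmer probe set was again at 0.11. In the repeat run Dlgap4 changed by 0.40 with all arrays and by -0.44 (adjusted p = 0.236) without the 2 control arrays, which read 456.7 and 950.5. In the pulse run Dlgap4 read 1187, 2138, 1605 and 1894 after 30 min against a lowest control of 2108, with 1 treated array above it, and no pulse change of Dlgap4 passed.

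**Figure D5:**
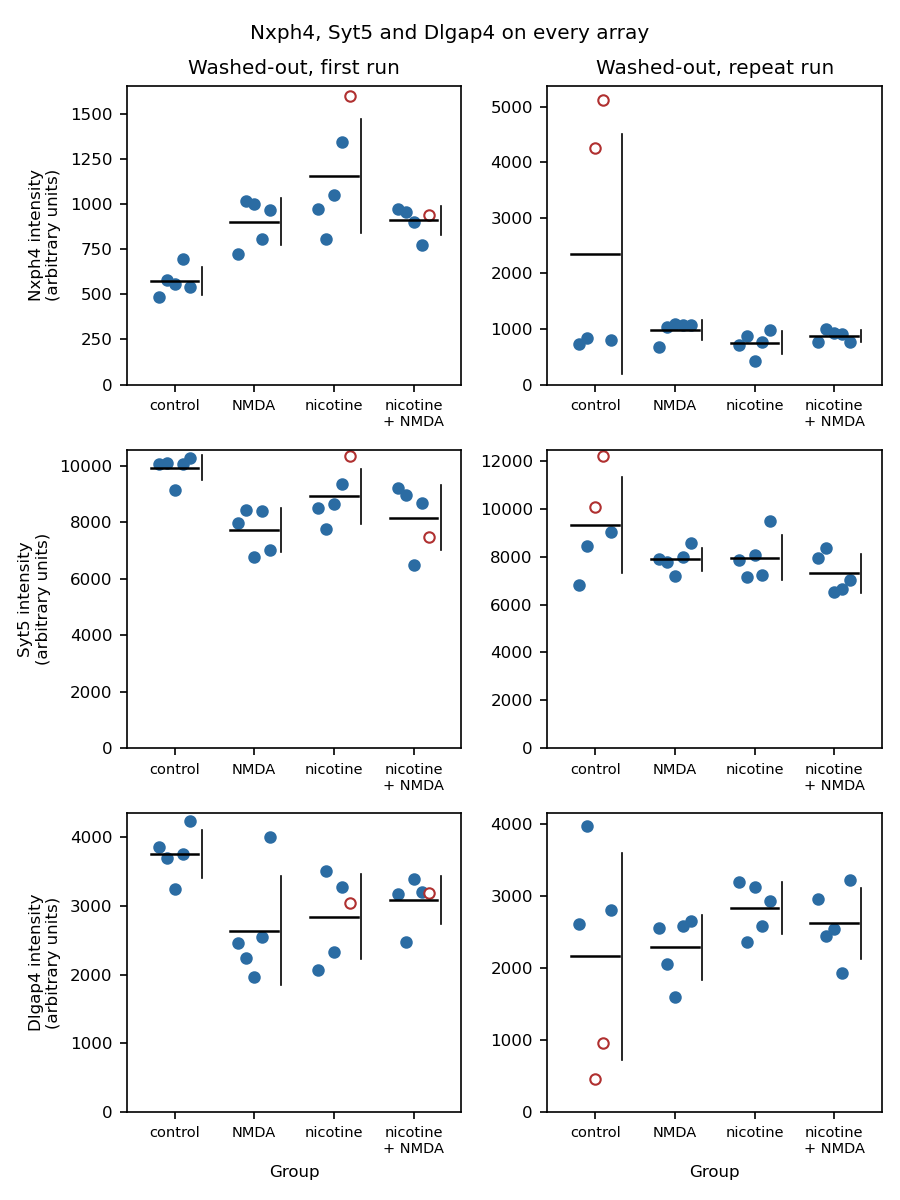
Intensity of Nxph4, Syt5 and Dlgap4 on each array of the first (left) and repeat (right) washed-out run, with the group mean (horizontal line), 1 SD on each side (vertical line) and open red circles for arrays that stood apart. The first-run NMDA arrays of Syt5 (6783 to 8424) lie below the controls (9155 to 10280), and those of Nxph4 (724.7 to 1015) lie above them, whereas in the repeat run the NMDA and control arrays overlap for all 3 genes.

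The first run's other members did not pass with NMDA. The medians by role were -0.05 for 7 synaptotagmins, 0.09 for 9 SNARE genes, -0.12 for 4 vesicle proteins and 0.11 for 8 adhesion genes. When NMDA followed nicotine, 0 of 37 members passed in the first run, where 2.04% of all probe sets did, and 4 members had an unadjusted p under 0.05, against 15.6% of all probe sets. The value nearest to a call was that of Syt3, at -0.47 with an adjusted p of 0.0554. Its arrays read 2000, 2119, 2564, 2105 and 3131 with both agents against 2955, 3391, 3667, 2928 and 3508 with nicotine alone, and replicate 5 of the first group overlapped the second. That array and replicate 5 of the nicotine group stood apart in the first run. Without them Syt3 (-0.55, adjusted p = 0.0209) and Dlg3 (-0.79, adjusted p = 0.0255) were called, with 2.38% of all probe sets.

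In the repeat run the 2 control arrays that stood apart moved several release genes. With all arrays, NMDA set Rab3a at 1.37, Syn1 at 1.12, Syt4 at 1.07 and Syp at 0.66 above control on the log2 scale, and Syt8 at -1.75, and 8 of 37 members had an unadjusted p under 0.05, against 16.7% of all probe sets. None passed, and 0.226% of all probe sets did. The Syt4 controls read 8773, 15720, 4534, 4831 and 21110, with the lowest pair from the arrays that stood apart. When control replicate 5 alone was left out, with that pair still in the fit, Syt4 was called at 1.37 (adjusted p = 0.0337). Without the arrays that stood apart, the changes were 0.21 for Rab3a, 0.20 for Syn1, 0.43 for Syt4, -0.14 for Syp and -0.89 for Syt8. The median of the 4 vesicle proteins went from 0.65 to -0.10. With all arrays included, the sum of the neuron markers was 39500 to 179000 in the repeat-run controls. In the first run it was 160000 to 188000 in the controls and 150000 to 172000 with NMDA. The astrocyte markers, 5 of 8 on the array, summed to 30900 to 40400 in the first-run controls and 25000 to 42200 with NMDA, and the oligodendrocyte markers, 4 of 6, to 2940 to 4490 and 3820 to 7110. The microglial and the endothelial or meningeal lists had 1 of 7 and 1 of 9 genes on the array. Their part in the members' changes was not tested.

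Syn1 is the vesicle gene whose searched upstream window holds the full CRE motif. Through that motif CREB, a factor activated by calcium entry, acts on many neuronal genes. Upstream sequence is shown for Syn1 and for Dlgap4, whose brighter probe set was called lower in the first run. Both are the 250 bases before the annotated start in the rat assembly GRCr8, from RefSeq, on the + strand, 5′ to 3′. The Dlgap4 window lies at chr3:165584110-165584359 and the Syn1 window at chrX:3725495-3725744, and capitals mark TGACGTCA.
Dlgap4: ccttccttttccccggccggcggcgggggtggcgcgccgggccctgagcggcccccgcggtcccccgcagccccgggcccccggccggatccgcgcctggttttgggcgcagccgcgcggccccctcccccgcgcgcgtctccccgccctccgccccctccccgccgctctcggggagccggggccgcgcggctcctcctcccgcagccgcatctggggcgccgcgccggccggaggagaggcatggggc
Syn1: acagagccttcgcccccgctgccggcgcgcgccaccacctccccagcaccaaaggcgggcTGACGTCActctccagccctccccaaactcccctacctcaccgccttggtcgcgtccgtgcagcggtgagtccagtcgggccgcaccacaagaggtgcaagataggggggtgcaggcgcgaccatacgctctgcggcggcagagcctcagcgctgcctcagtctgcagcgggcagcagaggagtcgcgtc
The Dlgap4 window had 84.4% G and C and the Syn1 window 69.6%. RefSeq windows matched 33 of the 43 members, and those of Nrxn2, Nrxn3, Nxph4 and Syt5 were not among them. Only the first listed window of each member was searched. The shares over all windows count every listed window, so the 2 kinds of share are not fully alike. On either strand TGACGTCA was found in 1 of the 33 members, Syn1 (3.03%), and in 1.59% of 33469 windows. Its first 5 bases, TGACG, which every TGACGTCA holds, were found in 9 members (27.3%) and in 18.2% of all windows. The 9 were Rab28, Rab29, Rab3a, Stx12, Stx5, Stx6, Stxbp2, Syn1 and Syt4. The AP-1 motif TGACTCA was found in no searched member window and 4.05% of all windows, and the EGR motif GCGTGGGCG in no searched member window and 0.478%. These matches describe the letters of the windows, and Syn1 itself was not called in any comparison listed above.

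The continuous run followed the members while NMDA stayed in the medium. At 10, 30, 60, 180 and 360 min, 0 of 36 members passed, where 0%, 0%, 0.679%, 0.452% and 0% of all probe sets did, and limma gave 6, 1, 0, 0 and 3 members at an unadjusted p under 0.05, against 7.13%, 1.81%, 2.26%, 3.96% and 8.14% of all probe sets. With the replicate block, 0 members were called at any time, while 0, 4, 9, 8 and 9 of 884 probe sets were called higher, and 1 lower at 360 min. The member medians were -0.20, 0.00, -0.01, -0.11 and -0.16, and those of all probe sets -0.05, -0.01, -0.02, -0.07 and 0.01. At 10 min Syt11, a synaptotagmin of vesicle trafficking, read 4962, 2915 and 3342 in the controls and 602.8, 1740 and 2016 with NMDA. Ctnnd2 (delta-catenin), which binds cadherins at the synapse, read 5428, 4177 and 4282 and then 1583, 2754 and 3103. In both genes the groups were separate, and 2 of 36 members and 6% of all probe sets were separate in the lower direction. In the higher direction 4 of 36 members were separate, and 33 of all 884 probe sets. The Syt11 and Ctnnd2 changes of -1.43 (SE 0.38, adjusted p = 0.351) and -0.92 (adjusted p = 0.464) did not pass. The first 2 arrays listed for that group stood apart, with Gapdh ratios of 2.41 and 2.27. With the third array alone in the group, the fitted changes were -0.83 for Syt11 and -0.55 for Ctnnd2, neither called. In that fit the 10 min member median was 0.04, with 17 of 36 members below 0 in place of 25, and 1 member had an unadjusted p under 0.05.

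At 360 min the smallest p-values belonged to the scaffolds. Dlg3 read 909.6, 751.6 and 860.5 in the controls and 552.1, 462.4 and 341.2 with NMDA, without overlap, as in 7.01% of all probe sets, and changed by -0.80 (adjusted p = 0.371). Dlgap4 changed by -1.17 (SE 0.38, adjusted p = 0.289). The second array listed for this group stood apart, and without it Dlg3 was at -0.82 and Dlgap4 at -0.63. Syt9, one of the calcium-binding synaptotagmins, read 438.2, 562 and 494.4 in the controls and 275.5, 155.9 and 136.6 after 30 min, a change of -1.11 without overlap (1.58% of all probe sets) that did not pass. The next smallest p-values at 30 min were those of Nrxn3 (-0.49) and Stx12 (-0.29). At 60 min they belonged to Syt6 (-0.87), Syt7 (-0.76) and Snap25 (-0.59), and at 180 min to Syt7 (-0.93), Dlg3 (-0.35) and Stx5 (0.31). Stx12 at 360 min was at -0.50 with separate groups, and Stx7 at 10 min at -0.66.

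In the crossed run, with agents present until harvest, 0 of 34 members passed with NMDA, nicotine, NMDA within nicotine or nicotine within NMDA, or in the interaction, where 0.905%, 0%, 1.02%, 0% and 0% of all probe sets did. At an unadjusted p under 0.05 limma gave 1, 2, 0, 0 and 0 members, against 6.22%, 4.52%, 3.28%, 1.58% and 1.81% of all probe sets. Dlg4 (PSD-95) read 4819, 4670 and 5446 in the controls and 7546, 6001 and 6620 with NMDA, so that the groups were separate, as in 5.09% of all probe sets, and its change of 0.43 had an adjusted p of 0.724. With nicotine the Rab GTPase gene Rab28 read 2042, 2446 and 2288 against 2573, 3988 and 3347, a change of -0.52 (adjusted p = 0.721) without overlap, which 4.41% of all probe sets showed. Control replicate 2 and NMDA replicate 2 stood apart in this run, and without these 2 arrays Rab28 was at -0.37 and Dlg4 at 0.46. Syn1 was at 0.49 with NMDA and 0.62 with nicotine, and at 0.29 and 0.31 without these arrays. Stx8, an endosomal syntaxin, was at -0.35 with NMDA and -0.46 with nicotine. With both agents against nicotine alone the smallest p-values belonged to Syt5 (0.27), Stx7 (-0.56) and Stx4 (-0.32), with both against NMDA alone to Syt11 (1.07), Syt8 (-0.82) and Sv2a (-0.23), and in the interaction to Nlgn3 (-1.47), Syn1 (-0.57) and Dlg4 (-0.41). Without the arrays that stood apart, Syt11 was at -0.16, Syt8 at -1.51 and Sv2a at -0.17 with both against NMDA alone, and the interaction of Syn1 was -0.37.

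After 15 min of nicotine, 0 of 37 members passed and 0% of all probe sets did, with 4 members at an unadjusted p under 0.05 in limma against 3.28% of all probe sets. Rab28 read 2615, 2414 and 2715 in the controls and 1733, 1833 and 1874 with nicotine, a change of -0.50 (SE 0.14, adjusted p = 0.9996). A dimmer Rab28 probe set was at -0.02. Nlgn3, a postsynaptic partner of neurexins, read 591.7, 727.5 and 761.7 and then 1219, 988.4 and 877.5, a change of 0.53. Both genes had separate groups. In the lower direction 4 of 37 members and 5.2% of all probe sets were separate, and in the higher 2 of 37 and 4.41%. In the repeat washed-out run, nicotine left 0 of 37 members called, where 0% of all probe sets passed, with 8 members at an unadjusted p under 0.05 against 20.1%, and 2 against 6.79% without the control arrays that stood apart. The smallest p-values there belonged to Dlg3 (0.98), Syt8 (-1.91) and Nlgn1 (-1.72), which were at 0.64, -1.04 and -0.81 without those arrays. Nlgn2, a neuroligin of inhibitory synapses, was at 1.01 after 15 min of nicotine, and in the repeat run it was at -1.21 (adjusted p = 0.68) with both agents against nicotine alone and at -0.95 against NMDA alone. Without the control arrays that stood apart the first of these Nlgn2 values was -1.21 with an adjusted p of 0.123. With the replicate block as well it was called (adjusted p = 0.0143, limma), where 37 probe sets were called higher and 20 lower of 884. Nlgn2 passed there under only 1 of 12 alternatives, with changes from -1.34 to -0.29. In the first run of the same samples no member lay below -0.52 in that comparison.

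4R for 18 h left 0 of 38 members called, and 4R followed by 24 h without it 0 of 37, where 0% of all probe sets passed in each. Limma gave 0 and 2 members at an unadjusted p under 0.05, against 2.04% and 1.58% of all probe sets. At 18 h the smallest p-values belonged to Nlgn2 (-0.53), Nlgn3 (-0.66) and Stx5 (-0.21). After washing, Ctnnd2 read 2734, 2420 and 2174 in the controls and 4486, 3346 and 3538 with 4R, and Syt11 read 2740, 3487 and 3077 and then 4981, 4109 and 4776. Both pairs of groups were separate in the higher direction, as were those of 4 of 37 members in all and of 3.96% of all probe sets. In the lower direction 0 members were separate. The changes of 0.61 for Ctnnd2 and 0.56 for Syt11 had an adjusted p of 0.999 each. The fits were also run on simulated data with 884 probe sets and 200 of them changed. There limma found 81% of log2 changes of 1 in the nicotine 15 min run and 75% in the 4R 18 h run. It found 24% in the 60 min pulse and 34% in the washed-out NMDA comparison. Far fewer probe sets passed in the data than were changed in the simulation, and with fewer changed the adjustment is stricter. The percentages therefore do not give the share of real changes found in these runs.

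Of the 64 other genes of release and adhesion listed beside the members (calcium channels, active zone and endocytic proteins, transporters and adhesion molecules), 16 were on the array and 14 bright enough to be tested in most runs. Limma called 0 of them in the 21 comparisons above. In the first washed-out run, where 11.1% of all probe sets were called higher, NMDA raised 5 of 14: the presynaptic calcium channel genes Cacna1a (0.66, adjusted p = 0.032) and Cacna1b (0.45, adjusted p = 0.0078), the vesicle genes Syngr1 (0.53, adjusted p = 0.0078) and Slc18a3 (0.44, adjusted p = 0.0446), and the endocytic phosphatase Synj1 (0.50, adjusted p = 0.0492). With quantile normalization Cacna1b alone was called higher, and with median centring 0 were higher and L1cam and Ncam1 were called lower.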

How the data were processed

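The deposited table holds linear intensity values for 112 arrays of total RNA, made by the authors with software not given in the sources used here. Array means after trimming 2% of values from both ends ranged from 2503 to 2513, which shows a scaling by the authors to 1 target, and no further scaling was applied. Of 1322 probe sets, 59 controls were left out, and 1137 of the remaining 1263 were annotated with 1 gene. Symbols were looked up by Entrez ID in a RefSeq table, and all 43 members kept theirs.

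Values were turned into log2 after adding the 10th percentile of the run's positive values, and probe sets with a mean below the 30th percentile were not tested. Group means were fitted for all groups of a run together with limma 3.58.1 in R 4.3.3, with an intensity trend, and p-values are 2-sided, adjusted by the Benjamini-Hochberg method, with a threshold of 0.05. An array stood apart when its median correlation with the other arrays of its run was more than 3 scaled median absolute deviations below the run's median. The fits were tested on simulated data.

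The members and lists were chosen with earlier results of these data known. Members that passed the test were given in full, with the 3 members of smallest p in each comparison, and others were named by role. The first washed-out run was an alternative to the repeat, and its description beside the repeat, with alternatives of its own, was added after the data were seen. Culture dates in the labels pair the replicates of the pulse, crossed and 4R 18 h runs. They also pair those of the 4R washed-out run except replicate 3, whose control carries no date. In the continuous run, arrays with the same number deviated together in all 45 pairs of arrays (the lowest correlation was 0.109). In the first washed-out run the correlation exceeded 0.1 in 24 of 30 such pairs. Its median there was 0.367, against -0.084 for arrays of other numbers. In the repeat run it exceeded 0.1 in 19 of 30 pairs. Alternatives were the offset, the filter, quantile normalization, median centring, the mean of a gene's probe sets, the replicate block, fits of the groups compared only, and leaving out each replicate.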

Additional observations from a re-analysis of the deposited data

Results flagged for a closer look

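In 10 of 60 groups of 4 or 5 arrays, checked for Nrxn2, Nrxn3, Nxph4, Syt5 and Dlgap4 in the pulse run and both washed-out runs, the highest or lowest array lay far from the others, by a gap that took a large share of the group's range. With independent, normally distributed values about 1 group in 20 would give such a gap. The groups here share arrays between genes, and some flagged arrays had already stood apart, so the count cannot be set against that share. No interaction test of a member passed its threshold, of 108 made.

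For Nrxn2 the array was the highest of its group in 3 cases. Replicate 1 of the 10 min pulse read 12060 with the nearest at 7432, a gap of 0.844 of the range, and replicate 4 of the 60 min pulse, which stood apart, read 17000 with the nearest at 10240 (0.899). Control replicate 4 of the first washed-out run read 21630 with the nearest at 16640 (0.765), and without single arrays the first-run change of Nrxn2 lay between -0.64 and -0.49. For Nrxn3, control replicate 3 of the repeat run, which stood apart, read 5968 with the nearest at 824.3 (0.88).

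For Nxph4, replicate 3 of the pulse control read 1494 with the nearest at 792.2 (0.854). Replicate 3 of the 10 min pulse, which stood apart, read 3329 with the nearest Nxph4 array at 730.4 (0.96). In the repeat-run NMDA group, replicate 1 was the lowest for Nxph4 at 672.1, with the nearest at 1031 (0.841).

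For Syt5, control replicate 3 of the first run was the lowest at 9155, with the nearest at 10050 (0.796), and it still lay above every NMDA array. For Dlgap4, replicate 5 of the first-run NMDA group was the highest at 3999, with the nearest at 2548 (0.712). Replicate 2 of the first-run group with both agents was the lowest for Dlgap4 at 2470, with the nearest at 3172 (0.761).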

How the results depend on the processing

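Of 258 counts of called members under alternatives, 240 were close to their main value and 18 moved, and of 228 counts that each left out 1 array, 8 moved. With the culture replicate as a block, 5 of 37 members were called with NMDA in the first washed-out run and 2 of 37 with NMDA after nicotine there. Of all 884 probe sets, 146 were then called higher and 64 lower with NMDA, and 39 and 21 with NMDA after nicotine. In that run replicates share only a number, and the block changed no other count. Of the counts that were 0, that of the 60 min pulse became 1 without the arrays that stood apart and with the block, where 4.3% of all probe sets were called. The count for NMDA in the repeat washed-out run became 1 without the arrays that stood apart, with or without the block, 4 in the first run, and 0 to 1 when single arrays were left out. Without those arrays 1.81% of all probe sets were called with NMDA, and with the block as well 33 were higher and 20 lower of 884. The count for nicotine became 1 in the first run (0.339% of all probe sets). The count for NMDA after nicotine became 1 without the arrays that stood apart (2.83% of all probe sets). With the block as well it became 2, where 37 probe sets were higher and 20 lower of 884. In the first run, the 4 calls with NMDA became 2 with quantile normalization, 7 with median centring, and 2 to 4 when single arrays were left out. The 1 call with nicotine became 0 with quantile normalization, with only the groups compared in the fit, and without the arrays that stood apart with the block, and 0 to 1 when single arrays were left out. The count of 0 for NMDA after nicotine became 2 with the filter at the median, 1 with quantile normalization, 1 with median centring, 2 with the block, 2 without the arrays that stood apart, 3 with both, and 0 to 2 when single arrays were left out.

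Some values in the repeat run turned direction. Dlgap4 with NMDA, at 0.40 with all arrays, was -0.44 without the arrays that stood apart, -0.37 with the block as well, -0.54 in the first run, -0.068 in the mean of both runs, and -0.035 to 0.71 when single arrays were left out. Nxph4 with NMDA, at -0.70, was 0.29, 0.31 and 0.61 under the first 3 of these. Syt5 with NMDA, at -0.21, was 0.026 without the arrays that stood apart and with the block. Nxph4 with nicotine, at -1.09, was 0.91 in the first run. The cause was not tested. Dim probe sets lie near the added offset, so their changes are understated most.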
